A study of Mus musculus with 6 samples.

Results

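The 10 genes described here, Trem2, Tyrobp, Cd9, Cd68, Fabp5, Spp1, Lgals3, Mmp12, Ly6c2 and Cx3cr1, are markers of recruited and lipid-associated macrophages, and they were chosen by name from the 56305 genes of the table. Each was matched by its Ensembl identifier to the GRCm38 gene annotation. RNA-Seq was performed on the livers of 3 WT and 3 Vps15LKO mice, 1 library per liver. All were males of 5 weeks, fed standard chow ad libitum and collected at ZT6, where ZT counts hours from lights on. Vps15LKO mice are AlbCre+;Vps15f/f and carried a chronic deletion of Vps15, which encodes a subunit of the class 3 PI3K complex, through a Cre recombinase driven by the albumin promoter. That promoter is active in hepatocytes, so macrophages are not a target of the Cre. The labels call the controls WT, and the alleles those mice carry are not given in the sources used here.

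Macrophages of the liver have more than one origin. Kupffer cells are resident macrophages that line the sinusoids, while Ly6C-high monocytes enter from the blood through the chemokine Ccl2 and its receptor Ccr2 and become macrophages in injured tissue. Lipid-associated macrophages are a state first known from fat and fatty or injured liver, in which cells that take up lipid and dead cells switch on the lipid-sensing receptor Trem2, tetraspanins, lysosomal proteins, osteopontin and galectin-3. Several of these markers are also made by other cells: Spp1 by biliary cells, Cd9 and Lgals3 by many epithelia, Fabp5 by adipocytes and endothelium, and Cx3cr1 by some natural killer and dendritic cells.

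The promoter windows of the members that hold a letter match to a factor active in macrophages are shown first, to let their sequence be read beside the levels given below. They come from RefSeq (GRCm38.p6), run 5′ to 3′ on the gene's strand over 300 bases that end a little past the annotated start, and were available for 8 of the 10 members, all but Tyrobp and Fabp5. Capitals mark matches, on either strand, to GAGGAAGT, the core bound by the myeloid factor PU.1, or to TGANTCA, the site of AP-1. No match to one motif overlaps a match to the other.
Trem2, chr17:48346151-48346450, plus strand, AP-1: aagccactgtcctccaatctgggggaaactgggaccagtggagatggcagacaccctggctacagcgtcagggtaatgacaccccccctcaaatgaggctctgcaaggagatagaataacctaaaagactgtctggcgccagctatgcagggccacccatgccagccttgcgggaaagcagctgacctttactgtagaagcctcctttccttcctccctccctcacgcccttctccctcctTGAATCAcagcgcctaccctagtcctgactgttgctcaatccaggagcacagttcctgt
Cd68, chr11:69666121-69666420, minus strand, AP-1: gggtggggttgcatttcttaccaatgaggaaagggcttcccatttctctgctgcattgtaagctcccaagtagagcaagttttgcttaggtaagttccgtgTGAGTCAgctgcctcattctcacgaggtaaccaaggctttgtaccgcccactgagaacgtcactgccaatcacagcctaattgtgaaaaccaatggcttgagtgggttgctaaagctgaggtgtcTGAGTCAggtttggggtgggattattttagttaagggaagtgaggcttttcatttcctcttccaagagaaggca
Spp1, chr5:104434861-104435160, plus strand, PU.1: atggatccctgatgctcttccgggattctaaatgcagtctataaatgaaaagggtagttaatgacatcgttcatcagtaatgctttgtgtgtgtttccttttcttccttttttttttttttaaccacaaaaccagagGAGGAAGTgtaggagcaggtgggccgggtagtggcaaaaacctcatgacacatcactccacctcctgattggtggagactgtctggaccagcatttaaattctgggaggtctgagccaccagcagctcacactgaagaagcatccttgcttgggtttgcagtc
Mmp12, chr9:7344147-7344446, plus strand, PU.1 on the opposite strand: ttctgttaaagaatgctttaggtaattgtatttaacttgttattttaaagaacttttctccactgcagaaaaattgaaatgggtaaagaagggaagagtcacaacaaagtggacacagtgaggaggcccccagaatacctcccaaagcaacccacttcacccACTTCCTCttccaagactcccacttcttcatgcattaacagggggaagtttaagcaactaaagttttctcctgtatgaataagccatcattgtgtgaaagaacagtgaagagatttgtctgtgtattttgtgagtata
Ly6c2, chr15:75111922-75112221, minus strand, PU.1: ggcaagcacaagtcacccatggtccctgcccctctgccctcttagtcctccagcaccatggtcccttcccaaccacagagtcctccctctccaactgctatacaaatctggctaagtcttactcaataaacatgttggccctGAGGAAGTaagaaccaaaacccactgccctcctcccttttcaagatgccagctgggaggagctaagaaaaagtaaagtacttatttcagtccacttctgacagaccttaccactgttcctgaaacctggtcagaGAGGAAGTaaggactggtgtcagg
The PU.1 letters stood in a window of 3 of the 8 members (Spp1, Mmp12 and Ly6c2), against 3.69% of 27025 genes with a window of the same length. The AP-1 letters also stood in 3 of the 8 (Trem2, Cd68 and a second start of Mmp12 that is not printed), against 8.97% of genes. The E-box CACGTG, which Bmal1 and Clock bind, stood in 0 of the 8, against 8.09% of genes. These matches are counts of letters, and binding was not measured at them.

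The libraries held between 16137093 and 18110223 counted reads. Values are normalized counts, the reads of a gene divided by 1 size factor per library, with factors of 0.742 to 0.801 for the WT and 1.23 to 1.41 for the Vps15LKO libraries. Pik3r4, the gene that encodes Vps15, had 508, 573 and 460 normalized counts in WT replicates 1 to 3 against 341, 362 and 355 in the Vps15LKO replicates, so the groups were apart. Its log2 fold change was −0.54 with an adjusted p of 0.00207 (limma, Benjamini-Hochberg). The count covers the whole gene and all liver cells, and the recombined locus still makes a shortened product, so it checks the labels only in part. WT replicate 3 stood apart from its group: 158 tested genes were over 2-fold above both other WT livers there, against 27 and 15 in WT replicates 1 and 2, and Fabp5 was 1 of the 158. Without it, the log2 fold changes of the members other than Fabp5 lay between 2.13 for Tyrobp and 7.38 for Mmp12, and all 10 were called higher.

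All 10 members were called higher in Vps15LKO liver, Fabp5 only under some of the models tried. Of all 15430 genes tested, 66.5% were called in either direction, 33.5% higher and 33.0% lower (limma, Benjamini-Hochberg adjusted p below 0.05 with at least a 1.2-fold change), so the count itself has to be read against a background of widespread change. The median log2 fold change was 3.69 over the members and −0.02 over all tested genes. A log2 fold change of at least 4 was reached by 5 of the 10 members, against 2.20% of the tested genes. The 3 WT and 3 Vps15LKO livers did not overlap for 9 of the 10, against 36.4% of tested genes that were higher without overlap, and Fabp5 was the exception. Trem2, Mmp12 and Cx3cr1 did not have 20 normalized counts in all 3 WT livers, so they entered the test through the Vps15LKO livers, where they are high. Such entry favours a difference in advance. Of the other 7 members, whose median was 3.12, 2 (Spp1 and Lgals3) reached a log2 fold change of 4. In bulk liver RNA, more cells of a type and more RNA per cell cannot be told apart.

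**Figure D1:**
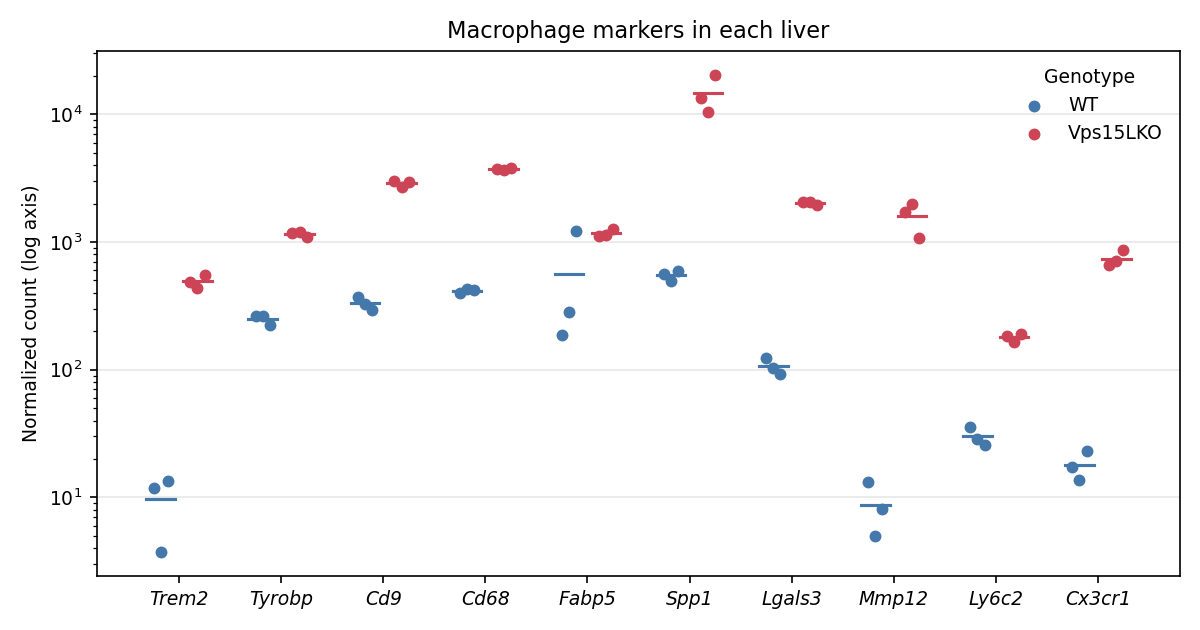
Normalized counts (log axis) of the 10 markers in each liver, WT in blue and Vps15LKO in red; points are single livers in the order of replicates 1 to 3 and bars are group means (n = 3 each). The groups are apart for every marker but Fabp5, whose WT replicate 3 lies among the Vps15LKO livers.

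The receptor rose far more than its adaptor. Trem2 (chromosome 17, 48346401 to 48354147, plus strand) encodes a receptor for lipids, lipoproteins and dying cells. It had 11.9, 3.75 and 13.5 normalized counts in WT replicates 1 to 3, which rest on 9, 3 and 10 reads, against 484, 436 and 555 in the Vps15LKO replicates. It was near the detection limit in every WT liver and readily measured in every Vps15LKO liver. The log2 fold change was 5.67 (SE 0.39, 95% interval 4.79 to 6.56, adjusted p 6.65e-06, limma with Benjamini-Hochberg), the 83rd largest rise of the tested genes. Without WT replicate 3 it was 5.97.

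Tyrobp (chromosome 7, 30413760 to 30417585, plus strand) encodes DAP12, the adaptor through which Trem2 and other myeloid receptors signal. Its normalized counts were 261, 265 and 222 in WT and 1168, 1194 and 1093 in Vps15LKO livers, a narrow spread in both groups and no overlap. The log2 fold change was 2.21 (SE 0.10, adjusted p 1.04e-06, limma with Benjamini-Hochberg), and its 95% interval of 1.97 to 2.44 lay below that of Trem2. Around the pair, 8 of 10 genes that act with them were called higher, 0 lower, 1 did not pass the test and 1 was too low to be tested. Lat2, the highest of them, was below 20 normalized counts in every WT liver (1, 6 and 10 reads) and entered the test through the Vps15LKO livers. Of the other 8 tested, 7 were called higher, with a median of 1.54, against 33.5% of all tested genes. Syk, the kinase that binds the phosphorylated adaptor, rose by 2.07 on the log2 scale, and Lat2, an adaptor of the same signal, rose by 3.40 from 1.33, 7.49 and 13.5 to 66.4, 64.8 and 74.3 normalized counts. Hcst, the neighbouring gene that encodes the related adaptor DAP10, was not tested: it had 3.98, 7.49 and 6.74 normalized counts in WT against 25.2, 17.0 and 26.9 in Vps15LKO livers. Apoe, a lipoprotein bound by Trem2 and made in bulk by hepatocytes, had the lowest value of the list, −1.06 (95% interval −2.28 to 0.16, adjusted p 0.109). Its normalized counts were 424200, 384310 and 368760 in WT against 192810, 190990 and 179770 in Vps15LKO livers, with no overlap. It was called lower by edgeR, DESeq2, limma voom and limma without a trend.

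Cd9, Cd68 and Fabp5 encode proteins of the membrane, the lysosome and lipid transport. Cd9 (chromosome 6, 125460266 to 125494791, minus strand) encodes a tetraspanin of the cell surface. It had 370, 330 and 295 normalized counts in WT against 3035, 2681 and 2930 in Vps15LKO livers, and every Vps15LKO liver lay far above every WT liver. Its log2 fold change was 3.12 (SE 0.11, adjusted p 3.2e-07, limma with Benjamini-Hochberg). Cd68 (chromosome 11, 69664213 to 69666153, minus strand) encodes a lysosomal glycoprotein used as a general stain for macrophages. Normalized counts were 399, 432 and 418 in WT and 3712, 3636 and 3773 in Vps15LKO livers. This was the tightest of the 10 markers, with a coefficient of variation of 3.98% in WT and 1.85% in Vps15LKO livers. The log2 fold change of Cd68 was 3.15 (SE 0.08, adjusted p 8.74e-08, limma with Benjamini-Hochberg).

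Fabp5 (chromosome 3, 10012548 to 10016607, plus strand), a fatty acid binding protein of macrophages and adipocytes, was the weakest case. It had 187, 282 and 1213 normalized counts in WT replicates 1 to 3 against 1109, 1137 and 1266 in the Vps15LKO replicates. WT replicates 1 and 2 were low, while WT replicate 3 lay within the range of the Vps15LKO livers. The log2 fold change of 1.54 (SE 0.57, 95% interval 0.24 to 2.85) was called at an adjusted p of 0.0393 (limma, Benjamini-Hochberg). Without WT replicate 3 the log2 fold change was 2.34 (adjusted p 2.03e-05), and leaving out any other liver ended the call (adjusted p 0.0668 to 0.141). It was also not called by edgeR (log2 fold change 1.10, adjusted p 0.107), DESeq2 (1.06, adjusted p 0.235) or limma without a trend (adjusted p 0.0727). In the same WT liver, Lpl, the lipoprotein lipase gene of macrophages and adipocytes, stood at 1593 normalized counts against 411 and 518 in the other WT livers. Of 8 adipocyte markers examined, Adipoq, Plin1, Cfd, Fabp4 and Cidec were highest of the WT livers in that liver, while Lep, Retn and Lgals12 had at most 1 read in any WT liver (summed normalized counts 123, 159 and 282 in WT replicates 1 to 3, and 437 to 737 in Vps15LKO livers for the list). The Vps15LKO sums were mostly Cidec (473, 558 and 283 normalized counts) and Fabp4 (176, 164 and 153), which other cells also make. The more specific Adipoq had 1, 4 and 13 reads in WT replicates 1 to 3 and 0, 4 and 0 in the Vps15LKO replicates, and Plin1 had 1, 3 and 6 against 0, 1 and 0. The part of such cells in the Fabp5 value was not tested. Lpl and the adipocyte markers were looked up after the values of Fabp5 were seen.

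The 3 members whose products are secreted all rose strongly. Spp1 (chromosome 5, 104435118 to 104441050, plus strand) encodes osteopontin, a matrix protein and cytokine. It had 562, 493 and 599 normalized counts in WT against 13401, 10402 and 20496 in Vps15LKO livers. The Vps15LKO livers differed among themselves, replicate 3 being the highest, but all lay far above WT. The log2 fold change was 4.69 (SE 0.22, adjusted p 1.16e-06, limma with Benjamini-Hochberg). Markers of biliary cells, which also make osteopontin, moved with it: all 7 that were tested were called higher, 5 of which entered the test through the Vps15LKO livers, with summed normalized counts of 176 to 208 in WT and 1839 to 2918 in Vps15LKO livers. Their sum was lowest in Vps15LKO replicate 2 and highest in replicate 3, the order that Spp1 had. Trem2, Ly6c2 and Cd68 had that order too, which is 1 of 6 possible orders of 3 livers. The part of biliary cells in the Spp1 value was not tested.

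Lgals3 (chromosome 14, 47367751 to 47386160, plus strand), which encodes galectin-3, a lectin that also coats damaged lysosomes, had 125, 104 and 93.0 normalized counts in WT against 2052, 2062 and 1958 in Vps15LKO livers. Both groups were tight and well apart. Its log2 fold change was 4.24 (SE 0.12, adjusted p 1.35e-07, limma with Benjamini-Hochberg). Mmp12 (chromosome 9, 7344381 to 7369499, plus strand), the macrophage elastase, had 13.3, 5.0 and 8.09 normalized counts in WT against 1730, 1972 and 1075 in Vps15LKO livers. From a level near the limit of detection, it showed the largest change of the 10, a log2 fold change of 7.39 (SE 0.33, 95% interval 6.63 to 8.15, adjusted p 9.75e-07, limma with Benjamini-Hochberg), and ranked 22nd of the tested genes. From so few WT reads the size depends on the pseudocount: with 10 in place of 1 the log2 fold change was 6.39 for Mmp12 and 4.70 for Trem2. Unlike Spp1, it was lowest in Vps15LKO replicate 3, as were Tyrobp and Lgals3. All 7 receptors and partners of osteopontin and galectin-3 that were listed were called higher, with a median of 1.33. Cd44, the hyaluronan receptor that binds osteopontin, rose most, by 3.26 (167, 192 and 195 normalized counts in WT against 1745, 1613 and 1983 in Vps15LKO livers), and the integrin chain Itgb1 rose least, by 0.34.

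The members that mark entry from the blood rose by unequal amounts. Ly6c2 (chromosome 15, 75108158 to 75111970, minus strand), the surface antigen of inflammatory monocytes, had 35.8, 28.7 and 25.6 normalized counts in WT against 185, 165 and 192 in Vps15LKO livers. Each Vps15LKO liver lay above every WT liver. The log2 fold change was 2.56 (SE 0.18, adjusted p 6.79e-06, limma with Benjamini-Hochberg). Ly6c1, its near copy, shares 5.81% of the 100-base windows of Ly6c2 transcripts. It had 5.30, 8.74 and 6.74 normalized counts in WT against 69.5, 68.9 and 78.5 in Vps15LKO livers. It was called higher as well. Cx3cr1 (chromosome 9, 119901616 to 120069879, minus strand), the fractalkine receptor, had 17.2, 13.7 and 22.9 normalized counts in WT against 664, 705 and 860 in Vps15LKO livers. It was low in all WT livers and high in all Vps15LKO livers, with a log2 fold change of 5.31 (SE 0.20, adjusted p 4.17e-07, limma with Benjamini-Hochberg).

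All 12 genes of monocytes and of their recruitment were called higher, with a median log2 fold change of 3.63. Of these 5, Ccl2 among them, were below 20 normalized counts in a WT liver and entered the test through the Vps15LKO livers, and the other 7 had a median of 2.25. Ccl2, the main chemokine for monocytes, had 17.2, 12.5 and 16.2 normalized counts in WT against 2448, 1756 and 2253 in Vps15LKO livers, and its log2 fold change of 7.04 was the highest of the list. Its receptor Ccr2 rose by 3.57, from 31.8, 21.2 and 33.7 to 338, 354 and 352 normalized counts. Cx3cl1, the ligand of Cx3cr1, rose by 3.78, from 22.5, 26.2 and 33.7 to 348, 340 and 481 normalized counts. The ligand, like the receptor, was highest in Vps15LKO replicate 3. Il34, a second ligand of the receptor Csf1r, rose least, by 0.90.

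**Figure D2:**
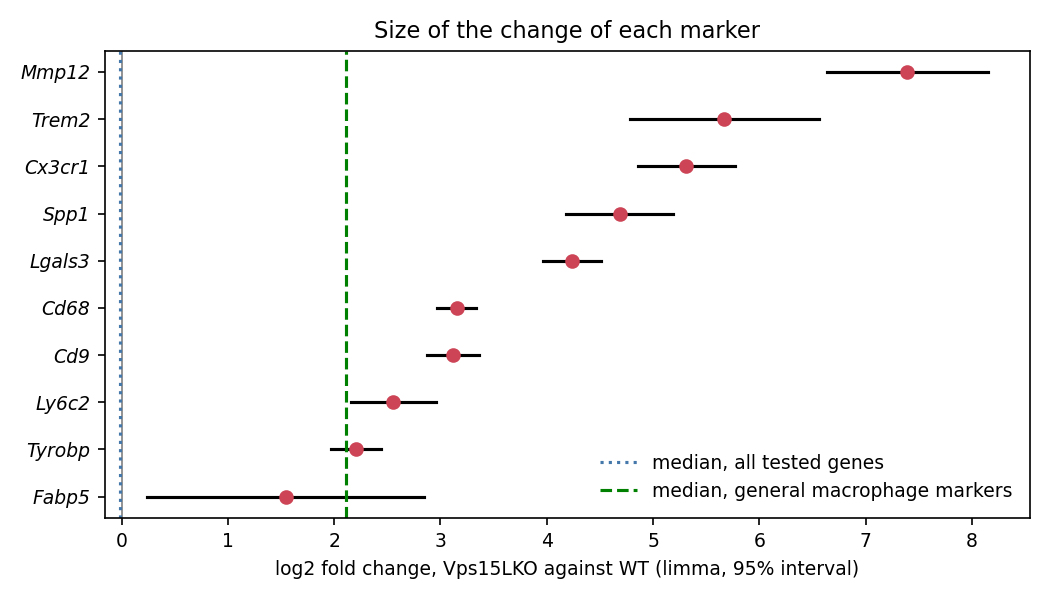
log2 fold change of each marker, Vps15LKO against WT, with its 95% interval (limma, n = 3 and 3); the dotted line is the median of all tested genes (−0.02) and the dashed line that of 14 general macrophage markers (2.11). The markers run from Fabp5 at 1.54 to Mmp12 at 7.39, and the intervals of Fabp5 and Tyrobp contain the dashed line.

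General macrophage markers rose as well, which raises the question of how far the 10 genes moved beyond them. All 14 were called higher, with a median of 2.11, from Mertk, an engulfment receptor, at 0.67 to Cd14, the lipopolysaccharide co-receptor, at 4.87. Csf1r, the receptor on which macrophages depend, rose by 1.45 (1416, 1723 and 1531 normalized counts in WT against 4551, 4563 and 3686 in Vps15LKO livers), and Adgre1, which encodes F4/80, by 1.46. For each liver, the log2 level of a member was set relative to the mean of the 14, a ratio within a library on which the size factors have almost no bearing.

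Relative to the 14 markers, 7 members were higher in every Vps15LKO liver than in any WT liver. The share of all tested genes for which this holds was not computed. Mmp12, Trem2 and Cx3cr1 entered the test through the Vps15LKO livers and were low in WT, so their separation was favoured in advance. Spp1, Lgals3, Cd68 and Cd9 had at least 20 normalized counts in every WT liver. The differences were 5.22 for Mmp12, 3.50 for Trem2, 3.14 for Cx3cr1, 2.52 for Spp1, 2.07 for Lgals3, 0.98 for Cd68 and 0.95 for Cd9. Each gave p = 0.1 in a two-sided exact permutation test, the smallest that 3 livers against 3 allow, so none could pass 0.05. Tyrobp was the opposite case: its relative level was −0.50, −0.74 and −0.99 in WT and −0.74, −0.63 and −0.76 in Vps15LKO livers, a difference of 0.04 (exact permutation p = 0.8). Ly6c2 differed by 0.39 (exact permutation p = 0.3) and Fabp5 by −0.63 (exact permutation p = 0.8), both with overlap. The sign for Fabp5 rests on WT replicate 3, whose relative level was 1.45 against −0.99 and −0.65 in the other WT livers: without it the difference was 0.13 for Fabp5, −0.09 for Tyrobp and 0.24 for Ly6c2, and the other 7 lay between 0.83 for Cd9 and 5.17 for Mmp12. The differences depend on the reference. Against Csf1r alone, Tyrobp differed by 0.75, Ly6c2 by 1.11 and Cd68 by 1.70. Cd14 was the marker of the 14 that rose most, and as a sole reference it was added after seeing the data. Against it, Mmp12 (2.53), Trem2 (0.81) and Cx3cr1 (0.45) were still higher at the mean, from few WT reads (9, 3 and 10 for Trem2). The groups overlapped for Cx3cr1, which had 22.9 normalized counts to 53.9 of Cd14 in WT replicate 3 and 664 to 1652 in Vps15LKO replicate 1. Spp1 (−0.18), Lgals3 (−0.63), Cd68 (−1.71) and Cd9 (−1.75) changed sign.

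**Figure D3:**
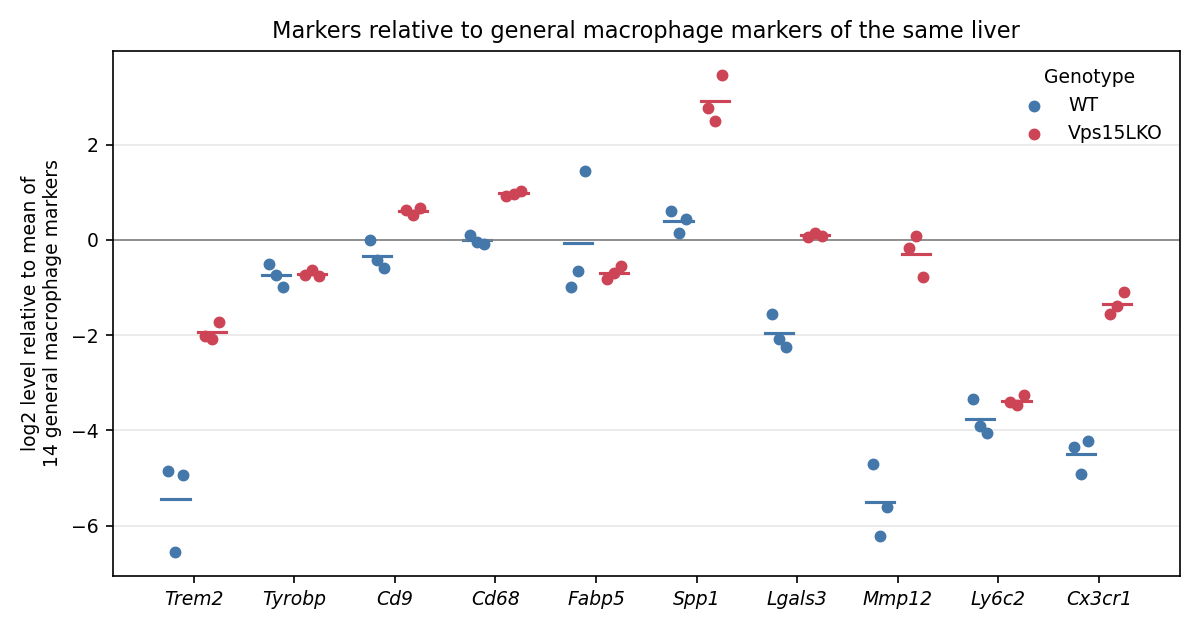
log2 level of each marker relative to the mean log2 level of 14 general macrophage markers in the same liver, WT in blue and Vps15LKO in red, with group means as bars (n = 3 each). Trem2, Mmp12 and Cx3cr1, which were tested only through their level in Vps15LKO livers, lie far higher there, while Tyrobp, Ly6c2 and Fabp5 overlap between the groups.

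The markers of resident Kupffer cells moved in both directions. Of 9, 4 were called higher, 2 lower and 3 were not called, with a median of 0.55. Of all tested genes, 66.5% were called, 33.5% higher and 33.0% lower, so a mix of directions is not particular to this list. These counts varied with the method: 6 were called higher with edgeR, with DESeq2, with upper-quartile or same-total scaling and without Vps15LKO replicate 3, and 5 higher and 3 lower with the replicate block. Clec4f, the lectin particular to Kupffer cells, had 1326, 1354 and 1549 normalized counts in WT against 2138, 2175 and 1361 in Vps15LKO livers, which overlap (log2 fold change 0.40, adjusted p 0.0786, limma with Benjamini-Hochberg). Timd4, a receptor for dying cells on long-lived resident macrophages, had 166, 191 and 164 in WT and 163, 118 and 74.3 in Vps15LKO livers (log2 fold change −0.62, 95% interval −1.20 to −0.04, adjusted p 0.0585). Cd5l, a scavenger protein, rose most, by 1.39, and Cd163, the haemoglobin scavenger receptor, fell by 3.04 on the log2 scale, from 245, 265 and 232 to 27.5, 35.7 and 25.5 normalized counts. In Vps15LKO replicate 3, 8 of the 9 Kupffer cell markers were at their lowest of the Vps15LKO livers, and of the 10 members 6 were at their highest there and 3 (Tyrobp, Lgals3 and Mmp12) at their lowest. The sums of the endothelial and hepatocyte lists were also lowest in that liver.

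Most further genes of the lipid-associated programme rose, by less at the median than the general macrophage markers. Of 15, 13 were called higher, 0 lower and 2, the lysosomal genes Ctsl and Lipa, did not pass the test, with a median of 1.43 against 2.11 for the general markers. Of the 15, 3, Gpnmb among them, were below 20 normalized counts in a WT liver and entered the test through the Vps15LKO livers. Of the other 12, 10 were called higher, with a median of 1.28. Gpnmb, a lysosomal glycoprotein and the top of the list, had 2.65, 19.99 and 9.44 normalized counts in WT against 4668, 3362 and 5362 in Vps15LKO livers. Its log2 fold change of 8.88 rests on 2, 16 and 7 WT reads. Lipa, the lysosomal acid lipase, was the lowest at 0.20 (adjusted p 0.253, limma with Benjamini-Hochberg). By the distance between log2 profiles over the 6 livers, the genes most like Trem2 were Osbpl3 (distance 0.529), the tetraspanin Cd63 (0.918), Tnfrsf23 (1.15), Myo5c (1.21) and Bex2 (1.26). Cd63, which is also of the lipid-associated list, had 49.1, 40.0 and 66.1 normalized counts in WT against 2269, 2081 and 2616 in Vps15LKO livers.

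Markers of several other cells were also higher, and their part in the values of the members was not tested. Of 7 neutrophil genes, 4 were tested, 3 of them because of their level in the Vps15LKO livers, and all 4 were called higher: the summed normalized counts were 69.9 to 79.6 in WT and 450 to 529 in Vps15LKO livers, with Ly6g and Mpo at 0 in every WT liver. The lowest of the 4 was Csf3r, a growth factor receptor of neutrophils, at 2.16. Dendritic cell markers were called higher in 7 of 7, 5 of which entered through the Vps15LKO livers (sums 159 to 197 against 404 to 425, lowest Zbtb46 at 0.55, highest Cd209a at 3.01). Of 10 lymphocyte markers, 7 were tested, 5 of them below 20 normalized counts in a WT liver, and 5 called higher (sums 140 to 169 against 344 to 403), with Cd8a at 3.82 and Cd79a, a B cell gene, at −0.65 and not called. Stellate cell and fibroblast markers were called higher in 10 of 10 (sums 7028 to 7540 against 29778 to 34960), from Lrat at 0.56 to Col1a1 at 4.39. Endothelial markers were mixed, 3 of 8 higher and 5 lower, from Oit3 at −1.02 to Lyve1 at 0.95 (sums 7093 to 7673 against 5230 to 7084). Hepatocyte markers were called lower in 7 of 8 and higher in 0, with Serpina1a at −3.07 and Asgr1 at −1.29 (sums 2531230 to 2877500 against 728248 to 1123300). Among biliary markers the largest difference was for Cldn4, with 0, 1.25 and 4.04 normalized counts in WT against 606, 554 and 574 in Vps15LKO livers, and the smallest for Krt19, at 2.11.

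**Figure D4:**
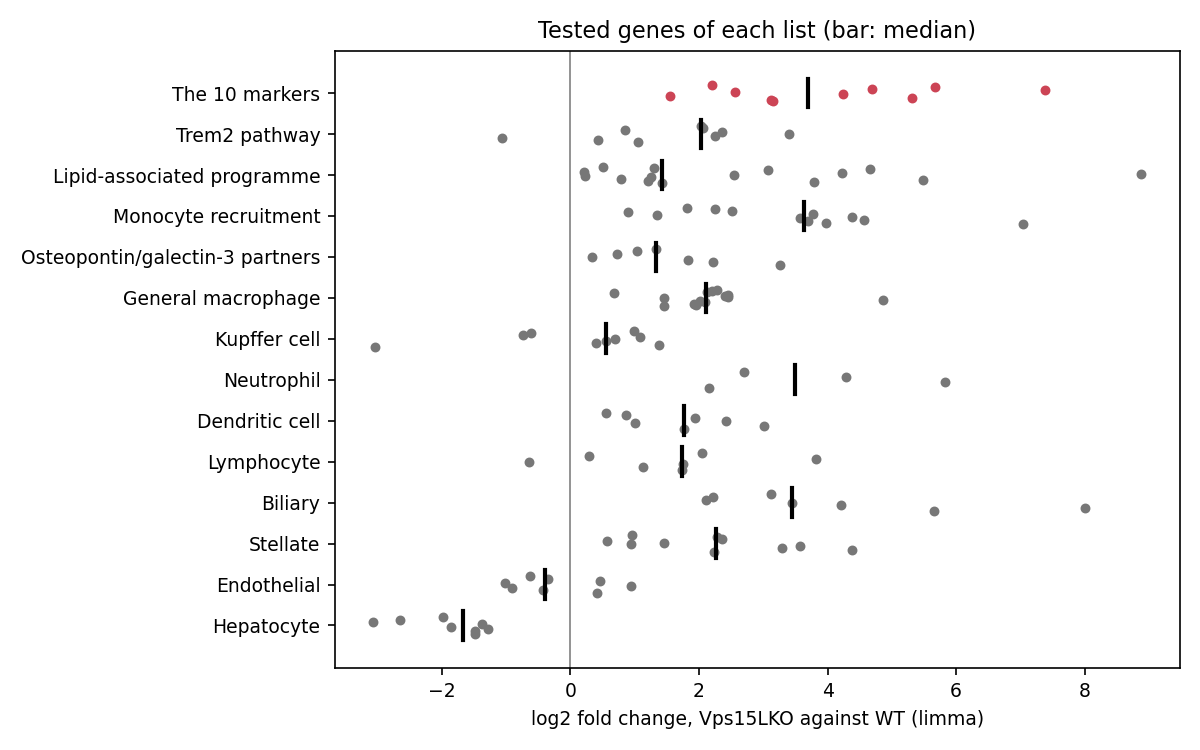
log2 fold change, Vps15LKO against WT, of each tested gene of the 10 markers (red) and of 13 other lists (grey), with the median of each list as a black bar (limma, n = 3 and 3). The markers, the monocyte recruitment genes, the neutrophil genes and the biliary markers have medians between 3.44 and 3.69, Kupffer cell markers 0.55 and hepatocyte markers −1.67, but 3 of the 10 markers, 5 of 12 recruitment, 3 of 4 neutrophil and 5 of 7 biliary genes were tested only through their level in Vps15LKO livers; Mpo, the neutrophil gene furthest right, has 0 reads in WT, so its place depends on the pseudocount of 1.

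Per kilobase of merged exons, the order of the members differed between the genotypes. In WT liver Tyrobp was the highest at 374 ± 35.2 normalized counts per kilobase (SD, n = 3), and it overlapped with Spp1 at 335 ± 32.4, which overlapped with Cd68 at 331 ± 13.2. Cd9, Fabp5, Lgals3, Ly6c2 and Cx3cr1 came next, and Fabp5, with its wide spread, overlapped with Cd9 above and Lgals3 below it. Trem2 at 1.97 ± 1.06 and Mmp12 at 1.21 ± 0.577 were the lowest and overlapped. In Vps15LKO liver Spp1 led at 8961 ± 3145 normalized counts per kilobase, above Cd68 at 2949 ± 54.5 and Tyrobp at 1727 ± 78.6 with no overlap. Cd9, Lgals3 and Fabp5 followed, each apart from the next. Mmp12 at 220 ± 64.1 and Cx3cr1 at 165 ± 22.9 overlapped, and Trem2 at 99.4 ± 12.1 and Ly6c2 at 65.9 ± 4.99 were the lowest. The order depends on the length used, as an alternative chosen after seeing the data showed, the longest principal transcript. With it Fabp5 came first in WT liver at 568 ± 575 normalized counts per kilobase, ahead of Tyrobp at 442 ± 41.7, with which it overlapped. In Vps15LKO liver Cd9 at 2347 ± 148 then lay above Tyrobp at 2043 ± 93.0 without overlap, Trem2 stood at 452 ± 55.1 and overlapped with Mmp12, and Cx3cr1 was last at 165 ± 23.0. In Vps15LKO liver Spp1 and Cd68 were first and second with either length.

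A small part of some counts could belong to other annotated genes. Exons of Cd9, Spp1, Mmp12 and Cx3cr1 overlap those of another gene over 218, 309, 157 and 78 bases, and for Cd9, Mmp12 and Cx3cr1 the other gene lies on the opposite strand. The library protocol marks the strand, but whether the reads were counted by strand is not given in the sources used here. Of the 100-base windows of Fabp5 transcripts, 2.19% are also found in Gm6166 or Gm14328.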

How the data were processed

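RNA was sequenced from the livers of 3 WT and 3 Vps15LKO mice, grouped by the genotype in the sample labels. Per the methods and the submitters' processing notes, the authors removed poor reads with SOAPnuke, aligned the rest to GRCm38 with HISAT2 and counted per gene with featureCounts. The deposited table holds a signal: read counts over a DESeq2 size factor for each library, for all genes. Deposited values above 0 were whole multiples of 1 read in each library (100.0%, within 0.01 read), so the reads were recovered. They summed to 16137093 to 18110223 per library. The values of single genes carry the spread between mice, which includes counting error.

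Gene symbols and positions are those of GENCODE release M21, matched for 55227 of 56305 genes. A gene was tested where 3 or more of the 6 livers reached 20 normalized counts (15430 genes). log2(normalized count + 1) was compared with limma 3.58.1 (eBayes with a trend, R 4.3.3) and two-sided p-values were adjusted by Benjamini-Hochberg over all tested genes. Folds on this scale understate the change of low genes. Members relative to 14 general macrophage markers were compared by an exact permutation test over livers. The comparison was also run on simulated data with known changes in few genes, a setting unlike the widespread change here.

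The members and the gene lists were chosen with earlier results of these data known. Named are the 10 members, 13 genes listed by hand (Pik3r4, Hcst, Syk, Csf1r, Adgre1, Gpnmb, Ccr2, Ccl2, Cx3cl1, Cd44, Clec4f, Timd4 and Ly6c1), the highest and lowest tested gene of each other list, and the 5 tested genes nearest to the Trem2 profile among those averaging 100 normalized counts or more. Lpl, Adipoq, Plin1, Lep, Retn, Cfd, Lgals12, Cidec, Fabp4, Ctsl and Ly6g are named outside this rule, after a look at their values.

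The alternatives were pseudocounts of 0.1 and 10, other filters, scalings and thresholds, limma without a trend, 3 count models on the recovered reads (DESeq2 1.42.0, edgeR 4.0.16 and limma voom), the replicate number as a block, and each liver left out in turn. edgeR on the recovered reads called 5383 genes higher and 4822 lower. Chi-square values between livers of the same genotype were 13.99 to 36.4 per gene, far above sampling noise, and every library was kept. Tables were made with Python 3.11.15, pandas 2.3.3, numpy 2.4.6 and scipy 1.17.1, and plots with matplotlib 3.10.9.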

Additional observations from a re-analysis of the deposited data

How the results depend on the processing

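In the comparison of genotypes, all 10 members kept their direction under every alternative that gave them a value, and the calls changed only for Fabp5. The members called higher were 9 with limma without a trend, edgeR and DESeq2, each time without Fabp5, and 9 to 10 with 1 liver left out. They were 7 when 20 normalized counts were required in every liver, since Trem2, Mmp12 and Cx3cr1 then left the test. Over the alternatives the log2 fold change ran from 4.70 to 6.73 for Trem2, from 6.39 to 8.18 for Mmp12, from 4.76 to 6.34 for Cx3cr1 and from 0.996 to 3.07 for Fabp5. With the replicate block 10 members were called higher, and of all genes 5065 were higher and 4983 lower. Same-numbered livers did not deviate together (correlations −0.01, −0.011 and 0.049), so the numbers were not taken as pairs. The block changed no call of a member.

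Scaling to the same total of reads moved the median of all genes by 0.72 on the log2 scale and upper-quartile scaling by 0.12. With the same total of reads 10299 genes were called higher and 1712 lower, and the Kupffer cell list had 6 higher and 1 lower and the endothelial list 0 lower. With edgeR, the same total of reads and no WT replicate 3, chosen after seeing the data, all 10 members were called. Kupffer cell markers called higher were 3 with limma without a trend, 5 with quantile normalization, limma voom and the replicate block, 6 with upper-quartile scaling, edgeR and DESeq2, and 3 to 6 with 1 liver left out. Those called lower were 3 with quantile normalization, the replicate block and Vps15LKO replicate 1 left out. At a fold of at least 2, 3228 genes were higher and 1957 lower, the Kupffer cell list had 2 higher and 1 lower, and the endothelial list 0 higher and 1 lower. With 20 normalized counts in every liver, the genes called higher were 7 for recruitment, 2 biliary, 1 neutrophil, 1 lymphocyte and 2 dendritic, and without a filter 7 neutrophil, because the number tested changed. With quantile normalization 3 lymphocyte and 3 dendritic markers were called higher, and 2 lymphocyte and 3 endothelial markers lower. Endothelial markers called lower were also 3 with upper-quartile scaling, limma without a trend and edgeR, and 3 to 5 with 1 liver left out. In the Trem2 pathway list 1 gene, Apoe, was called lower with limma without a trend, edgeR, DESeq2 and limma voom. The causes of these changes in scaling and model were not tested.

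With Csf1r alone as the reference, the differences relative to general macrophage markers were 1.67 for Cd9, 2.79 for Lgals3, 3.24 for Spp1 and 3.86 for Cx3cr1. With Cd14 alone, a reference added after seeing the data, the direction turned for Cd9 (−1.75), Spp1 (−0.18), Lgals3 (−0.63) and Cd68 (−1.71), and the values were −2.66 for Tyrobp, −2.31 for Ly6c2 and −3.32 for Fabp5. Low WT counts limit Trem2, Mmp12 and Cx3cr1, whose fold changes rest on few WT reads.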
